A study of Mus musculus with 16 samples.

Results

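The transcripts described here are those that a diet of high-fat food with sucrose water (HF+SD) changed in the same direction in the mouse thyroid at both feeding times. They were found by fitting 1 model with a term for time point and a term for diet to all 16 libraries of the series, so 16 of 16 samples entered the comparison. Each of the 4 groups held 4 male wild-type C57Bl/6J mice: chow controls (CD) after 3 weeks, HF+SD after 3 weeks, CD after 6 weeks and HF+SD after 6 weeks. The study's own RNA comparison at 6 weeks used 3 CD and 4 HF+SD mice. The paper does not say which of the 4 CD mice was not used. All mice were first given the study's chow to acclimate. At 8 weeks of age the HF+SD mice were switched to a lard-based food with sucrose in the drinking water, and the CD mice stayed on the chow. No mouse entered at both times, so the 3-week and 6-week sets are independent animals with independent controls. The libraries of each time point carry a library name series of their own, so a difference between the times and a difference between library sets cannot be told apart, whereas both diets are present in each set.

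The thyroid makes thyroxine and triiodothyronine by coupling iodine to tyrosines of thyroglobulin (Tg). Iodide enters the thyrocyte through the sodium/iodide symporter (Slc5a5), and its attachment to Tg uses hydrogen peroxide from dual oxidases. Thyrotropin (TSH) from the pituitary acts through its receptor (Tshr) and cAMP, and drives iodide uptake, hormone synthesis and, when it stays high, growth of the gland and of its capillary bed. Thyroid tissue lies against skeletal muscle, parathyroid glands and white and brown fat, so transcripts of these neighbours can be sampled with it.

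The libraries held 30025256 to 48508653 counts on 21640 genes. Values are given as CPM (counts scaled to a common library size after TMM), and a log2 fold change is HF+SD over CD. Thyrocyte markers took 27.4% to 30.3% of the counts in CD and 28.5% to 30.7% in HF+SD at 3 weeks. At 6 weeks they took 4.92% to 11.9% in CD and 10.6% to 15% in HF+SD, so that thyrocyte shares tended to be higher under HF+SD there. Skeletal muscle markers took 0.013% to 0.0193% of the counts in CD and 0.0224% to 0.0263% in HF+SD at 3 weeks. Their share was 0.144% to 0.482% in the HF+SD mice at 6 weeks. In the CD mice at 6 weeks they took 0.116% in M22, but 4.05% in M43, 17.2% in M45 and 12.3% in M48. M22 in turn had the highest parathyroid marker share of all mice, 1.96%, against 0.19% to 0.54% in the other CD mice at 6 weeks. Where the 3 muscle-rich libraries are left out below, M22 is the only CD mouse of 6 weeks. Of the 33 muscle genes tested, 7 were called lower under HF+SD in the joint model, against 3.91% of all genes tested. None of the 33 was separated between the diets at both times. Their median log2 fold change was 0.75 at 3 weeks and −5.48 at 6 weeks. White adipocyte markers took 0.122% to 0.162% (CD) against 0.0425% to 0.0878% (HF+SD) at 3 weeks, and 0.164% to 0.291% against 0.0692% to 0.12% at 6 weeks. Endothelial markers took 0.0541% to 0.0646% against 0.097% to 0.148%, and 0.0233% to 0.0513% against 0.122% to 0.156%. Thus adipocyte and endothelial shares did not overlap between the diets at either time. In such bulk samples, fewer cells of a type and less RNA per cell cannot be told apart, and the part of these markers in the results below was not tested except where a value with an adjusted model is given.

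**Figure D1:**
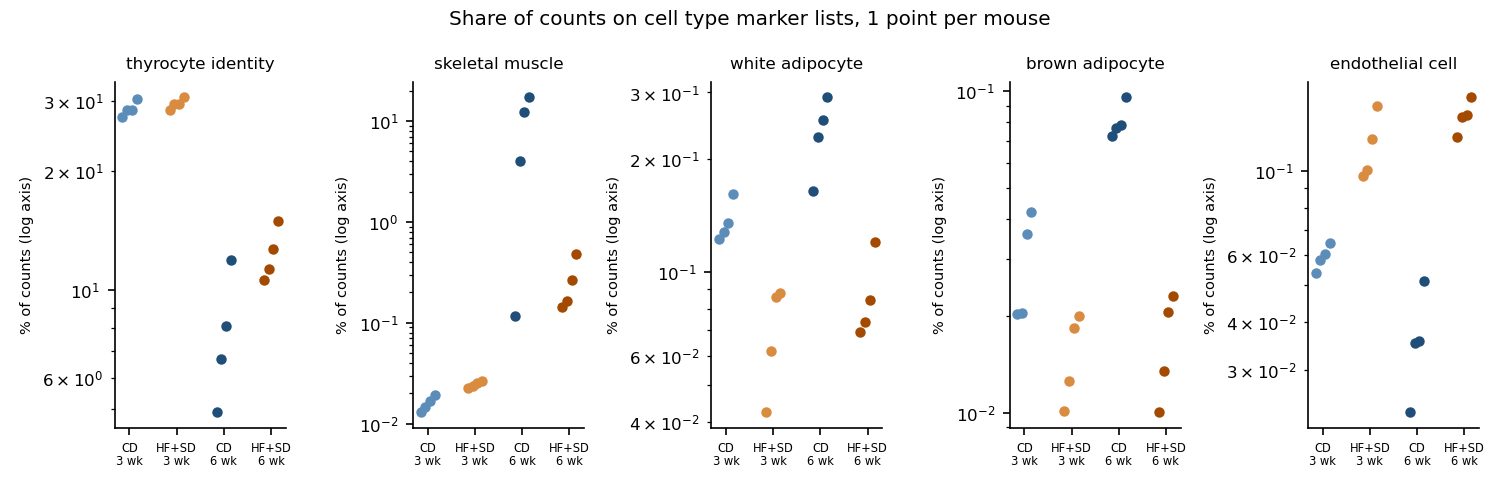
Share of each library's counts (percent, log axis) that fell on 5 lists of cell type markers, with 1 point per mouse in each diet and time group. Muscle counts stand high in 3 of 4 CD mice at 6 weeks (4.05% to 17.2%), while white adipocyte shares are lower and endothelial shares higher under HF+SD at both times.

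Across both sets, 896 of 18929 genes tested were called higher (4.73%) and 740 called lower (3.91%), at an adjusted p under 0.05 with a change of more than 1 on the log2 scale. Without the minimum fold change, 2603 genes passed as higher (13.8%) and 2512 as lower (13.3%). As a description of how regular a change was, a gene was counted as separated when every HF+SD mouse lay above, or every HF+SD mouse below, every CD mouse at 3 weeks and again at 6 weeks. Of all genes tested, 1084 were separated higher (5.73%) and 604 lower (3.19%). Among called genes the split was uneven: 607 of 896 called higher were separated (67.7%), against 225 of 740 called lower (30.4%). Counts of separated members among the called genes of a list stand beside these shares. The 832 called and separated genes are the ones described as changed in both sets below, unless a called gene is said not to be separated.

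Fitted on its own, the 3-week set gave 561 higher (3.25% of 17238 tested) and 242 lower (1.4%), and the 6-week set 1211 higher (6.64% of 18249) and 1097 lower (6.01%). In both separate fits and in the same direction, 414 genes were called higher and 131 lower, while 8 genes were called in opposite directions. These 545 genes were 69.3% of the 787 genes called at 3 weeks that could be tested at 6 weeks, and 26.9% of the 2025 called at 6 weeks that could be tested at 3 weeks. The 3-week calls had the same sign at 6 weeks in 92.0% of cases and the 6-week calls at 3 weeks in 86.1%, against 64.3% of all 17024 genes tested in both. The least shared class was that of genes called lower at 6 weeks, of which 679 of 890 had a negative value at 3 weeks. For 761 called and separated genes with a value in both fits, the median absolute log2 fold change was 1.263 at 3 weeks and 1.883 at 6 weeks, and 649 of them were larger at 6 weeks.

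**Figure D2:**
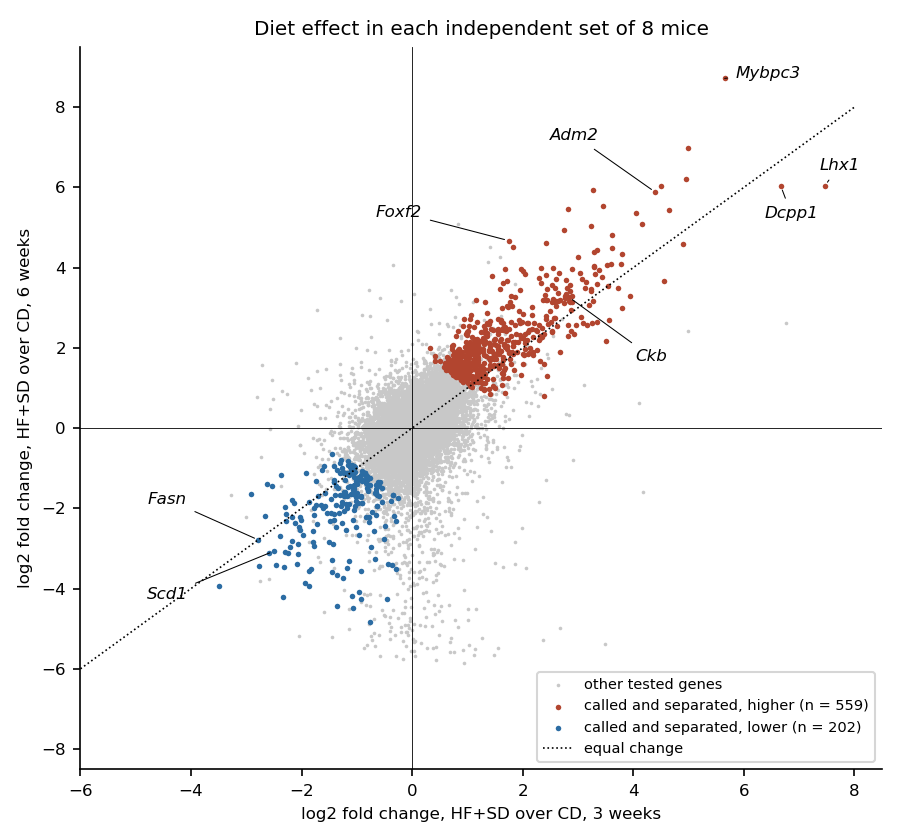
Log2 fold change (HF+SD over CD) of each gene at 3 weeks (x axis) and at 6 weeks (y axis), each from its own 8 mice. The 559 genes called and separated higher and the 202 lower are coloured, 649 of these 761 are larger in size at 6 weeks, and grey points below zero on the y axis spread down to values near −6 with little change at 3 weeks.

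Among genes with a symbol and a mean of at least 1 CPM, 468 were called and separated higher and 178 lower. The 12 higher genes with the largest change in their weaker set were led by Lhx1, a LIM homeobox transcription factor of kidney and brain development. Lhx1 read 0, 0, 0 and 0.0278 CPM in the CD mice at 3 weeks and 1.25, 1.56, 1.96 and 2.46 CPM under HF+SD. Its 6-week levels were 0, 0.0204, 0.157 and 0.249 CPM in CD and 1.87, 4.60, 8.94 and 10.8 CPM under HF+SD. It was thus close to silent in both control groups and present in all 8 HF+SD mice, with a shared log2 fold change of 6.28 ± 0.57 (SE, adjusted p = 1.21e-06). The CD mice of 3 weeks held 1 count in all against 278, a 266-fold ratio whose 95% bounds from counting error alone were 47.3 and 10500. Its antisense transcript Lhx1os had a log2 fold change of 6.26, and because no source used here states whether counting used strand, reads of this pair cannot be told apart.

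Mybpc3, the myosin-binding protein C of heart muscle, read 0.0256 to 0.111 CPM in CD and 2.46 to 3.48 CPM in HF+SD at 3 weeks. At 6 weeks its range was 0 to 0.0543 CPM in CD and 6.29 to 14.7 CPM in HF+SD, where the counts were 3 against 1421 (ratio 553, bounds 189 and 2690). Its shared change of 7.10 ± 0.46 on the log2 scale (adjusted p = 8.17e-08) was the highest among all tested genes, while the skeletal muscle list had its median of −5.48 at 6 weeks. Dcpp1, a gene of a family of near-identical copies named for demilune cells of salivary gland, read 0.0305 to 0.321 CPM in CD against 7.76 to 17.9 CPM at 3 weeks. After 6 weeks it read 0.415, 0.489, 0.751 and, in M43, 41.0 CPM in CD, against 369.6 to 1014 CPM, so that its copies' share of the reads was uncertain but the diets stayed apart (log2 fold change 6.23 ± 0.92, adjusted p = 0.000117).

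Several other members of this set encode secreted or membrane proteins. Adm2, the vasodilator peptide adrenomedullin 2 (ENSMUSG00000054136.7), read 4.79, 12.6, 13.5 and 37.6 CPM in CD at 3 weeks and 252, 342, 399.7 and 436 CPM in HF+SD. The later set read 2.23, 3.16, 4.29 and 9.36 CPM against 112, 277, 306 and 384 CPM. The lowest HF+SD mouse therefore lay well above the highest CD mouse at each time, and the shared change was 34.2-fold (log2 fold change 5.10 ± 0.49, adjusted p = 1.93e-06). F10, coagulation factor X, read 0.256 to 0.935 CPM in CD and 10.25 to 12.2 CPM in HF+SD at 3 weeks, then 0.376 to 0.977 and 13.6 to 24.85 CPM (log2 fold change 4.58 ± 0.29, adjusted p = 7.30e-08). Kcne1, an auxiliary subunit of potassium channels, changed 36.6-fold (log2 fold change 5.20 ± 0.44). Lingo1, a leucine-rich membrane protein known from neurons, had a log2 fold change of 5.55 ± 0.38, Mei1, a meiosis gene, one of 4.67, and Pimreg, a mitotic regulator of metaphase progression, one of 4.03. The unnamed transcripts AU015791 (5.03) and E330035G20Rik (4.70) complete the set.

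**Figure D3:**
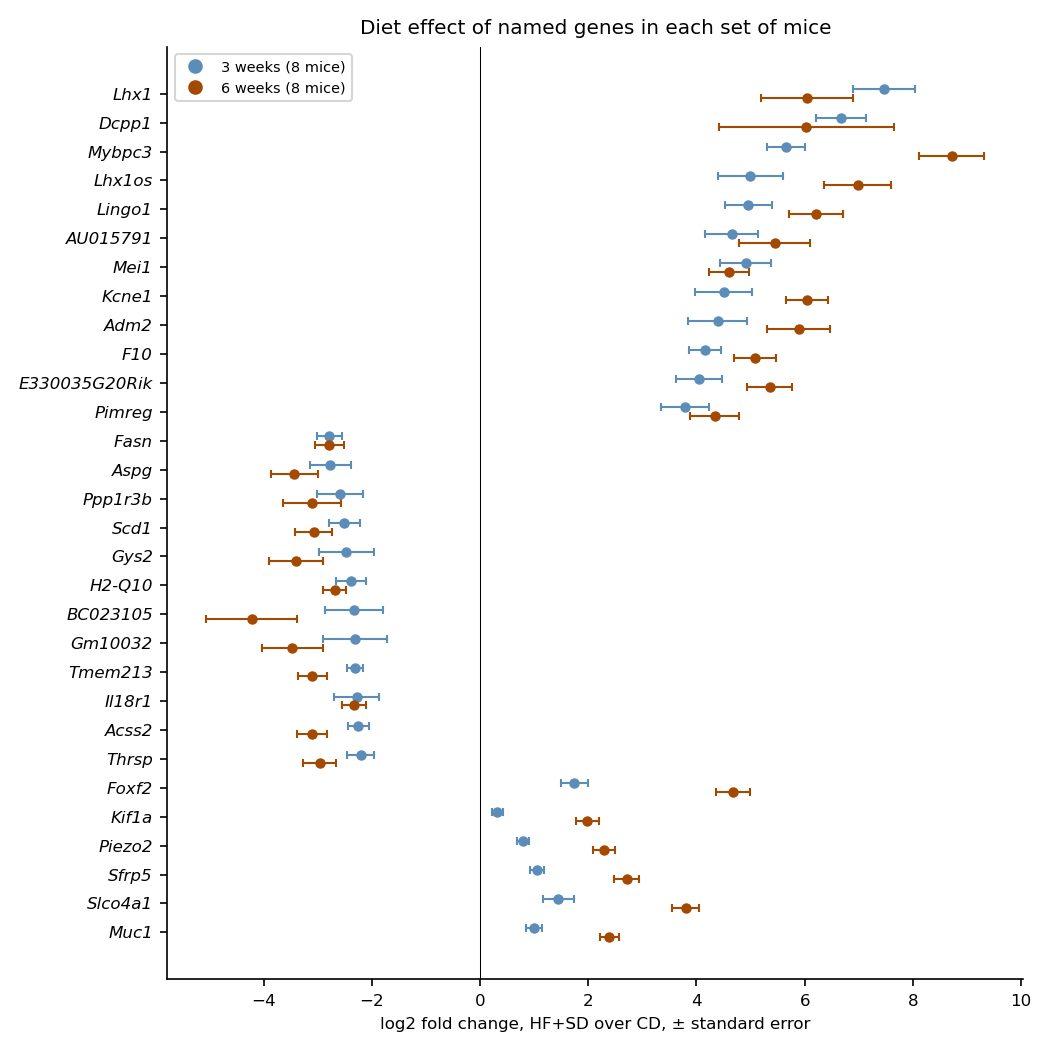
Log2 fold change (x axis, ± standard error) at 3 weeks and at 6 weeks, each from 8 mice, for the 12 higher genes, the 12 lower genes and the 6 genes whose change differed between the times. Every point of the 12 higher genes lies above 3 and every point of the 12 lower genes below −2, in both sets.

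Of the 12 lower genes, 4 belong to the lipogenesis list. Fasn, the fatty acid synthase (ENSMUSG00000025153.10), read 785, 1055, 1240 and 1702 CPM in CD and 150.5, 161, 162 and 221 CPM in HF+SD at 3 weeks. The 6-week mice read 193, 321, 343 and 422 CPM in CD and 34.65, 42.5, 50.8 and 51.7 CPM in HF+SD. The level differed between the sets of mice, but the diet effect had the same size in each, −2.78 at 3 weeks and −2.79 at 6 weeks on the log2 scale. The shared change was 7.0-fold (log2 fold change −2.81 ± 0.18, adjusted p = 8.17e-08). Scd1, the stearoyl-CoA desaturase that makes monounsaturated fatty acids, read 1886, 1907, 2166 and 3073 CPM against 224, 367.5, 407 and 589 CPM at 3 weeks. It read 1521, 2014, 2302 and 4004 CPM against 233, 251, 295 and 364 CPM at 6 weeks, the diets again apart (log2 fold change −2.81 ± 0.24, adjusted p = 7.30e-07).

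Acss2, which makes acetyl-CoA from acetate, read 39.45 to 55.5 CPM in CD and 6.32 to 11.9 CPM in HF+SD at 3 weeks, and 40.5 to 100.4 against 7.08 to 8.79 CPM at 6 weeks (log2 fold change −2.70 ± 0.21). Thrsp, a thyroid hormone and carbohydrate responsive protein of lipogenic tissues, changed by −2.61 ± 0.23 on the log2 scale (adjusted p = 8.22e-07). Glycogen genes were also among the 12. Gys2, the liver glycogen synthase, had a log2 fold change of −2.94 and Ppp1r3b, which targets a phosphatase to glycogen, of −2.86. Il18r1, a receptor chain for interleukin 18, read 24.7, 33.5, 54.9 and 111 CPM in CD and 10.3, 10.4, 12.2 and 13.2 CPM in HF+SD at 3 weeks. At 6 weeks it read 27.3, 29.5, 30.9 and 43.9 CPM against 5.02, 6.24, 6.41 and 7.66 CPM, no mouse crossing between the diets (log2 fold change −2.33 ± 0.24). The others were Aspg (−3.10), a gene with asparaginase and lysophospholipase domains, Tmem213 (−2.72), the class I histocompatibility gene H2-Q10 (−2.56), whose relatives share sequence, and the uncharacterized BC023105 (−3.34) and Gm10032 (−2.93). At 6 weeks BC023105 read 2.55 CPM in M22, 6.85 in M43, 20.5 in M48 and 53.4 in M45 of the CD mice, the order of their muscle shares. Its log2 fold change was −2.33 at 3 weeks and −4.22 at 6 weeks.

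When the white adipocyte score of each library was added to the model, 165 genes in all were called, of which 161 were called and separated. Since white adipocyte shares did not overlap between the diets at either time, the diet and this score can hardly be told apart in such a model. Under it the log2 fold change of Fasn was −2.20 (adjusted p = 0.00832), that of Scd1 −1.59 (adjusted p = 0.0487), of Acss2 −1.78 (adjusted p = 0.0242), of H2-Q10 −1.44 (adjusted p = 0.0081) and of Tmem213 −2.39 (adjusted p = 0.009), all still called. Il18r1 (−2.05, adjusted p = 0.117), Thrsp (−1.46, adjusted p = 0.0759) and Aspg (−1.80, adjusted p = 0.208) were no longer called. In the higher set Adm2 kept a log2 fold change of 4.16 (adjusted p = 0.0261), F10 one of 4.47 and Mybpc3 one of 7.11. This model was added after the marker levels had been seen.

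**Figure D4:**
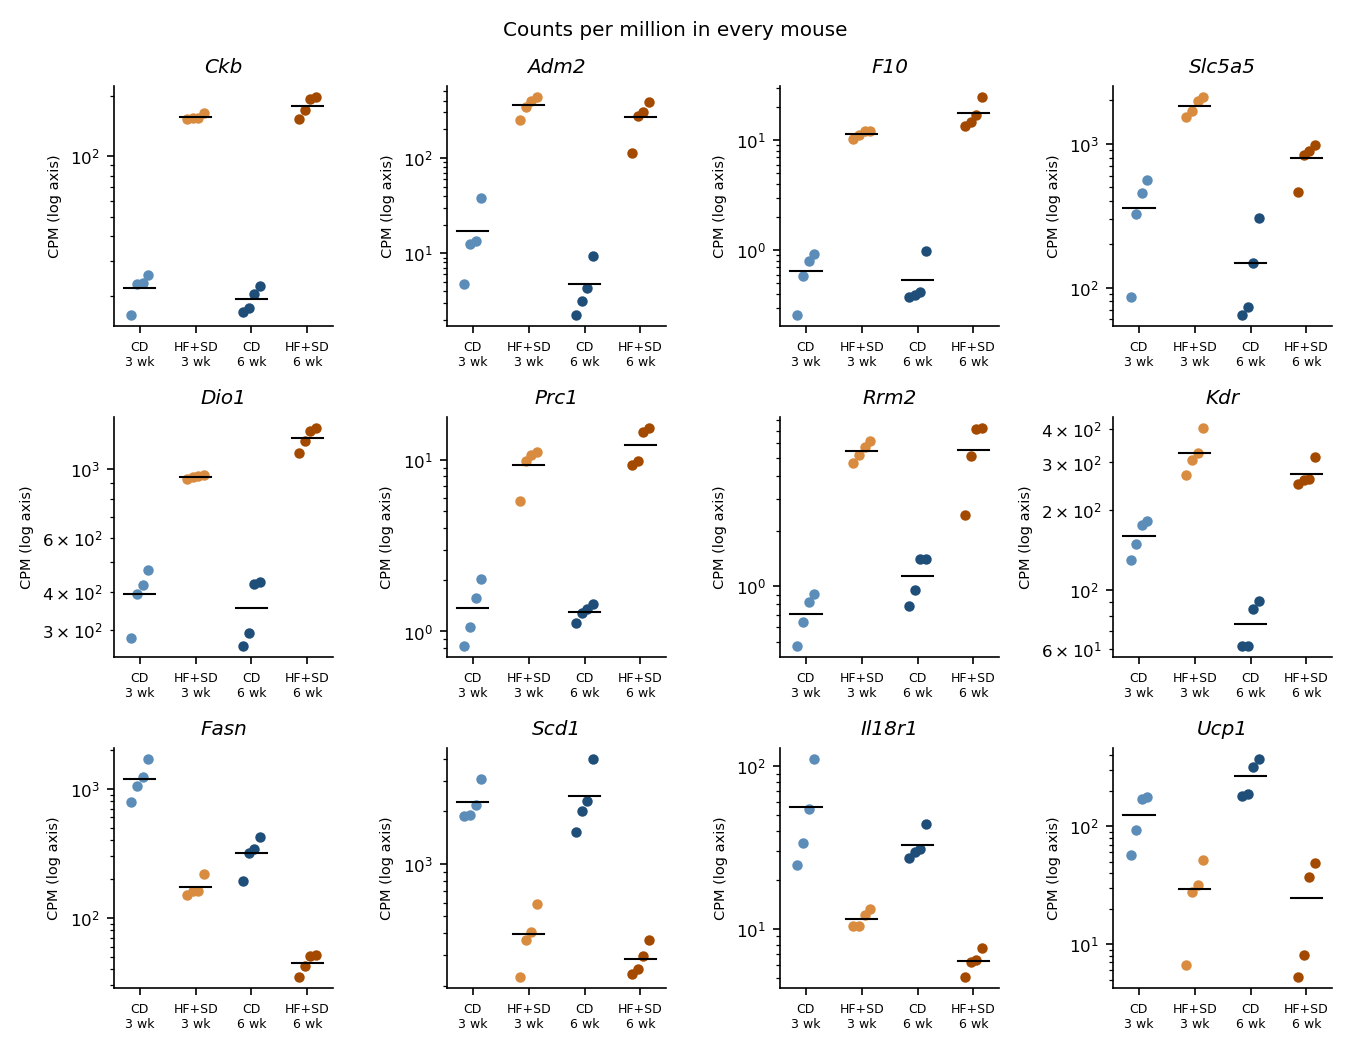
CPM (log axis) of 12 genes in every mouse, with a bar at each group mean. In all 12 panels the 4 HF+SD mice lie on 1 side of the 4 CD mice at 3 weeks and again at 6 weeks, above for the first 8 genes and below for Fasn, Scd1, Il18r1 and Ucp1.

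Ckb, the brain-type creatine kinase that buffers ATP through phosphocreatine (ENSMUSG00000001270.10), had the lowest adjusted p of all genes tested. At 3 weeks it read 16.1, 23.05, 23.4 and 25.6 CPM in CD and 154, 155, 155 and 164 CPM in HF+SD. Its 6-week levels were 16.7, 17.5, 20.4 and 22.6 CPM in CD and 152.5, 169.6, 192 and 197.5 CPM in HF+SD. Within each group the mice lay close together while the diets stood 8.10-fold apart (log2 fold change 3.02 ± 0.12, adjusted p = 1.61e-10). It was the only called gene of 7 in the creatine list, and it was still called with the adipocyte score in the model (2.94, adjusted p = 2.24e-05).

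Mitosis had the highest median of the 23 pathway lists. Of 43 genes for kinetochores, spindle, cyclin B and cytokinesis, 37 were called higher and none lower, against 4.73% of all genes called higher. Of the 37, 36 were separated at both times, against 67.7% of all genes called higher. The median log2 fold change of the list was 2.39, against −0.055 for all tested genes, and its members ranged from 0.38 to 3.55. It was 2.21 at 3 weeks and 2.48 at 6 weeks, close to each other. Tpx2, a spindle assembly factor, was called but not separated (log2 fold change 1.37, adjusted p = 0.013), and Aurka, Bub1b, Incenp, Mad2l1, Smc4 and Ube2c were not called.

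Prc1, which bundles microtubules of the central spindle (ENSMUSG00000038943.17), read 0.819, 1.07, 1.56 and 2.03 CPM in CD and 5.72, 9.80, 10.7 and 11.1 CPM in HF+SD at 3 weeks. After 6 weeks it read 1.13, 1.27, 1.35 and 1.44 CPM against 9.28, 9.82, 14.6 and 15.3 CPM, no mouse overlapping (log2 fold change 3.00 ± 0.21, adjusted p = 1.25e-07). Knl1 (2.98) and Nuf2 (2.63), both of the outer kinetochore, and the cytokinesis kinesin Kif23 (1.91) were the other members with the lowest p-values. Mki67, the antigen used to stain cycling cells, averaged 3.38 ± 1.70 CPM (SD, n = 4) in CD and 25.0 ± 3.47 CPM in HF+SD at 3 weeks, and 4.11 ± 1.19 against 34.6 ± 8.56 CPM at 6 weeks.

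Of 39 DNA replication genes, 6 were called higher and none lower, against 4.73% and 3.91% of all genes, with a list median of 0.14. It was −0.46 when libraries were scaled to thyrocyte genes. That scale moved the median of all tested genes from −0.055 to −0.648, so this change is not particular to the list. Every value on the thyrocyte scale given below carries the same shift. Of all 18929 genes tested, 396 were called higher and 3352 lower on that scale, and counts of calls on it stand beside these. Rrm2, the regulated subunit of ribonucleotide reductase, read 0.473, 0.64, 0.824 and 0.908 CPM in CD and 4.65, 5.19, 5.69 and 6.13 CPM in HF+SD at 3 weeks. The later set read 0.787 to 1.41 CPM in CD against 2.44, 5.14, 7.16 and 7.25 CPM, the lowest HF+SD mouse still above all CD mice (log2 fold change 2.59 ± 0.24). The checkpoint mediator Clspn (2.27), the ubiquitin ligase adaptor Dtl (1.94) and Gins2 of the replicative helicase (1.13) were called and separated. Orc1 of the origin recognition complex (2.04) and Pole, a replicative polymerase (1.51), were called without being separated.

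Under other settings the mitosis count changed from 37 of 43. It was 35 on a scale set by 9 thyrocyte genes, 39 without the 3 muscle-rich CD libraries and 25 with the white adipocyte score in the model. Of the 39 replication genes, 5 were called higher without those libraries and 2 with that score.

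Many late cell cycle promoters are known to carry a cell cycle genes homology region (CHR), read by the DREAM and MuvB complexes, next to CCAAT boxes bound by NF-Y. The promoter windows of the mitosis genes, from 250 bases before to 50 after the RefSeq start in build GRCm38.p6, were searched for TTTGAA (CHR) and for CCAAT on both strands, motifs that do not overlap in letters. Windows were looked up by symbol, and 34 of the 43 genes had 36 windows. Of these, 29 held a CHR (80.6%), 28 a CCAAT box (77.8%) and 25 both (69.4%), whereas of all 32851 windows of 27025 genes 17.9%, 37.4% and 6.95% did. In the 38 windows of the replication genes the shares were 10.5%, 60.5% and 7.89%. In the 506 windows of genes called and separated higher, which include mitosis genes, the shares were 19%, 38.9% and 10.7%. In the 198 windows of those lower they were 14.6%, 40.4% and 8.59%. For each motif alone both sets lay near all windows. Both motifs together were held by 10.7% of the higher and 8.59% of the lower windows, against 6.95% of all. A match of such short motifs is a description of the sequence and not a binding site, and the counts here were made on build mm39, so these coordinates are those of the promoter table alone.

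The windows of the 4 mitosis genes with the lowest p-values are shown because they were named by rule and differ in these motifs. They run 5′ to 3′ on the strand of the gene, with each CHR and each CCAAT box in capitals. Knl1 lies at chr2:119046869-119047168 on the plus strand and holds a CHR alone. Prc1, the first of its 2 windows, lies at chr7:80294201-80294500 on the plus strand and holds both. Nuf2 lies at chr1:169531415-169531714 on the minus strand and holds neither. Kif23 lies at chr9:61946750-61947049 on the minus strand and holds a CHR just after a CCAAT box that reads in the opposite direction.
Knl1: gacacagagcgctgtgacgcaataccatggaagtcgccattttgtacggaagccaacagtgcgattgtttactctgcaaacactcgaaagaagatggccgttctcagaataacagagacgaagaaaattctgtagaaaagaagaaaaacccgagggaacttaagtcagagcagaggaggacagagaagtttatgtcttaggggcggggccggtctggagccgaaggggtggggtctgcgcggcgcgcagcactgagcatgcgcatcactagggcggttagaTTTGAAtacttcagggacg
Prc1: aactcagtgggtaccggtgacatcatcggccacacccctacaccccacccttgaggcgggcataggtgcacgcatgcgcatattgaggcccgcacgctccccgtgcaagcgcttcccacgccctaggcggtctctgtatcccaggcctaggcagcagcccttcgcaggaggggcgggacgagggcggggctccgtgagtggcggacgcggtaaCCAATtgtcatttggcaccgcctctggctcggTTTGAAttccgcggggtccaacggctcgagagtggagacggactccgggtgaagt
Nuf2: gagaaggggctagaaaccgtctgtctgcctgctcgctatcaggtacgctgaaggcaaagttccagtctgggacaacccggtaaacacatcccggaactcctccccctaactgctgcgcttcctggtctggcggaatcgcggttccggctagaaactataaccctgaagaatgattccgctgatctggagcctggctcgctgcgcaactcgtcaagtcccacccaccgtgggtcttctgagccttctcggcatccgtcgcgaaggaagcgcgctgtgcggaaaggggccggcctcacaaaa
Kif23: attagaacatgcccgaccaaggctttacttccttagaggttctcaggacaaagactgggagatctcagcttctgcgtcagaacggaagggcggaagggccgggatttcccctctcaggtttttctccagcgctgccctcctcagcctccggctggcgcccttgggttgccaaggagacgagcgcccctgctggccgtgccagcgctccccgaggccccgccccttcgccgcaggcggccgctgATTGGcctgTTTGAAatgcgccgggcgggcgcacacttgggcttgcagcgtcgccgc

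In Knl1, Prc1 and Kif23 the CHR lies toward the 3′ end of the window. Nuf2, with neither motif in this window, changed by 2.57 at 3 weeks and 2.75 at 6 weeks on the log2 scale, between Kif23 (1.83 and 2.04) and Knl1 (2.83 and 3.18).

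Genes of iodide handling and hormone synthesis formed a list of 14, of which 5 were called higher and 2 lower, against 4.73% and 3.91% of all genes. The list's median log2 fold change was 0.71, and 0.17 with libraries scaled to thyrocyte genes. Slc5a5, the sodium/iodide symporter (ENSMUSG00000000792.3), read 86.2, 327, 452 and 563 CPM in CD and 1526, 1678, 1975 and 2115 CPM in HF+SD at 3 weeks. The 6-week mice read 64.0, 73.5, 147 and 303 CPM in CD and 464, 839, 885.5 and 979.9 CPM in HF+SD. The CD mice spread widely but stayed below all HF+SD mice, and the shared change was 5.25-fold (log2 fold change 2.39 ± 0.36, adjusted p = 0.000143).

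Dio1, the type 1 deiodinase that activates thyroxine and recovers iodide, read 283, 393, 419.7 and 470.4 CPM in CD and 933, 948, 953 and 959 CPM in HF+SD at 3 weeks. It read 265, 294, 423.5 and 428 CPM against 1135, 1238, 1334 and 1365 CPM at 6 weeks (log2 fold change 1.56 ± 0.14, adjusted p = 1.37e-06). Slc26a4, the anion exchanger pendrin, rose 12.6-fold from levels of 0.102 to 0.25 CPM in the CD mice to 1.21 to 1.57 CPM at 3 weeks and 2.31 to 5.31 CPM at 6 weeks in HF+SD. Ano1, a calcium-activated chloride channel that passes iodide, rose by 1.69 on the log2 scale. The 2 lower members were Duox1 (−1.07, adjusted p = 0.0238), a dual oxidase and not separated, and its maturation factor Duoxa1 (−1.82, adjusted p = 0.000663). Their partners Duox2 and Duoxa2 had values of 0.58 and 0.85, under the minimum fold change.

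Tg, the hormone precursor and the most abundant transcript of the gland (ENSMUSG00000053469.15), was not called. It read 274200, 288500, 315900 and 327600 CPM in CD and 292900, 307300, 307700 and 326900 CPM in HF+SD at 3 weeks, and 63430, 65430, 70190 and 92160 against 80780, 82610, 99930 and 118500 CPM at 6 weeks. The diets overlapped in both sets (log2 fold change 0.21 ± 0.15, adjusted p = 0.313), and the value was −0.37 (adjusted p = 0.099) on the thyrocyte scale. For Tshr the value was 1.43 (adjusted p = 0.000414), called but not separated. Slc5a5, Tshr, Duox2, Tg and Dio1 are listed as TSH-responsive by the study, and since they were taken up here with results of these samples known, their direction is not independent evidence.

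Of 27 genes for the TSH receptor and cAMP, 4 were called higher and 2 lower, against 4.73% and 3.91% of all genes, the median being 0.06. Downstream enzymes changed both ways. Pde4c, a cAMP phosphodiesterase, rose by 1.73 on the log2 scale, with 5.4 to 6.76 CPM in CD and 13.8 to 18.6 CPM in HF+SD at 3 weeks, and 3.57 to 6.11 and 17.0 to 20.9 CPM at 6 weeks. Rapgef4, the cAMP-activated exchange factor EPAC2, rose by 1.3. Pde3b, another phosphodiesterase, fell by 1.11, and Rgs2, a brake on G protein signals, fell by 1.22, both separated at each time. On the thyrocyte scale Rapgef4 was at 0.71 and Tshr at 0.84, no longer called. Of 5 thyroid transcription factors, Glis3 alone was called (1.17, adjusted p = 0.00943), not separated, and it was at 0.93 without the 3 muscle-rich libraries.

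Adm2 acts on capillaries through the receptor Calcrl with the modifying proteins of the Ramp family. Of 8 genes of this system tested, Adm2 and Ramp3 were called higher and none lower, against 4.73% and 3.91% of all genes. Ramp3 read 7.27 to 13.2 CPM in CD and 19.8 to 28.7 CPM in HF+SD at 3 weeks, and 3.07 to 7.44 against 27.5 to 31.2 CPM at 6 weeks (log2 fold change 1.87 ± 0.25, adjusted p = 3.90e-05). Calcrl had a value of 0.55 (adjusted p = 0.0141), Ramp2 one of 0.61 (adjusted p = 0.00352) and the related peptide Adm one of 0.72 (adjusted p = 0.0189), all below the minimum fold change and not separated. Lower values were those of the related peptides Calca (−0.77, adjusted p = 0.000537, separated) and Calcb (−0.95, adjusted p = 0.0151) and of Ramp1 (−2.19), none of them called.

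Of 17 genes of the VEGF, angiopoietin and apelin systems, 7 were called higher, all separated, and none lower, against 4.73% and 3.91% of all genes, with a median log2 fold change of 0.77 (0.17 on the thyrocyte scale). Among ligands, Angpt2, an antagonist of Tie2 in sprouting vessels, read 2.48, 2.72, 4.06 and 4.22 CPM in CD and 8.59, 9.09, 9.51 and 13.3 CPM in HF+SD at 3 weeks. At 6 weeks it read 3.46 to 4.48 CPM against 17.4, 18.8, 20.9 and 23.3 CPM, with a wide gap (log2 fold change 2.00 ± 0.17, adjusted p = 7.66e-07). Apln, the ligand of tip cells, was at 1.64 and Vegfa at 0.79 (adjusted p = 0.000977), separated but below the minimum fold change. Angpt1 (−0.44), Vegfb (−0.38), Vegfd (−0.16) and the co-receptor Nrp2 (−0.13) had negative values and were not called.

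Among receptors, Kdr, the main VEGF receptor of endothelium, read 129, 148, 176 and 182 CPM in CD and 270.0, 307, 327 and 404 CPM in HF+SD at 3 weeks. It read 61.4, 61.7, 84.5 and 90.7 CPM against 250.2, 258.5, 259 and 315 CPM at 6 weeks, higher in 8 of 8 HF+SD mice (log2 fold change 1.45 ± 0.16, adjusted p = 5.88e-06). Tie1 (1.17), Aplnr (1.15), Flt1 (1.11) and Flt4 (1.01) followed. These receptors are expressed mainly by endothelial cells. Of 14 endothelial markers, none of them in the list of 17, 11 were called higher, 10 of them separated, against 4.73% of all genes. Pecam1, the endothelial adhesion protein CD31, read 103 to 134 CPM in CD and 174 to 258 CPM in HF+SD at 3 weeks, and 76.9 to 93.0 against 263.5 to 292 CPM at 6 weeks. Cldn5, the claudin of tight endothelial junctions, was at 0.07 (adjusted p = 0.841). Of 11 pericyte and smooth muscle markers only Notch3 was called (1.17). Without the 3 muscle-rich libraries 4 of the 17 vascular genes and 7 of the 14 endothelial markers were called, on the thyrocyte scale 2 of each were called higher, and with the adipocyte score in the model none of either.

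Of 36 collagen chains, 6 were called higher, all of them separated, and 1 lower, against 4.73% and 3.91% of all genes. Col18a1, the source of endostatin, rose by 1.52 on the log2 scale, and Col4a1 and Col4a2, chains of basement membrane, by 1.18 and 1.02. The other basement membrane chains Col4a3 (−0.06), Col4a4 (−0.30), Col4a5 (−0.14), Col4a6 (−0.37) and Col15a1 (0.40) were not called, and the remaining higher chains were Col26a1 (1.85), Col13a1 (1.64) and Col9a3 (1.18). The lower chain was Col22a1 of muscle-tendon junctions (−3.24) without being separated, and it was not called once the 3 muscle-rich libraries were left out, when 8 chains were called higher and none lower. The median of the list was 0.44, and −0.18 on the thyrocyte scale. On that scale 2 chains were higher and 7 lower, beside 396 and 3352 of all 18929 genes. Fibroblast markers moved less, with none of 8 called.

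Lipogenesis had the lowest median of the 23 pathway lists. Of 23 genes, 11 were called lower, against 3.91% of all genes, and none higher, 9 of the 11 separated, with a median log2 fold change of −1.09 (−0.69 at 3 weeks, −1.14 at 6 weeks) against −0.055 for all genes. Besides Fasn, Scd1, Acss2 and Thrsp, these included Mlxipl, the carbohydrate-responsive factor ChREBP, which averaged 26.4 ± 4.49 CPM (SD, n = 4) in CD and 7.69 ± 1.47 CPM in HF+SD at 3 weeks, and 37.8 ± 9.40 against 4.69 ± 0.490 CPM at 6 weeks. Acacb and Acaca, the acetyl-CoA carboxylases, had values of −1.86 and −1.09, the ATP citrate lyase Acly one of −1.19 and the acyltransferase Agpat2 one of −1.44. Lpin1 (−1.31) and Pnpla3 (−1.29) were called without being separated. Srebf1, the other main lipogenic factor, had an adjusted p of 0.994, and the desaturase Fads1 was separated in the higher direction at 0.72.

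Fat cell markers, of which the lipogenesis list holds none, were lower too. Of 8 white adipocyte markers 7 were called lower, 4 of them separated, against 3.91% of all genes called lower. Lep was not called (−0.85, adjusted p = 0.128). Adipoq, the adipokine adiponectin, read 78.35, 84.1, 91.5 and 109.8 CPM in CD and 25.9, 42.3, 59.3 and 64.0 CPM in HF+SD at 3 weeks, and 93.0, 109, 138 and 183 against 38.8, 41.75, 47.25 and 82.4 CPM at 6 weeks. Its shared log2 fold change was −1.12 ± 0.21 (adjusted p = 0.000846). Of 7 brown adipocyte markers 6 were called lower and 5 separated, beside the same 3.91% of all genes called lower. Ucp1, the uncoupling protein of brown fat, read 56.8, 93.5, 172 and 177 CPM in CD and 6.68, 27.7, 31.9 and 51.3 CPM in HF+SD at 3 weeks. Its 6-week levels were 182, 188, 321 and 372 CPM against 5.23, 8.16, 36.85 and 48.7 CPM (log2 fold change −2.76 ± 0.51, adjusted p = 0.000905). Cidea was at −2.63, Cox8b at −2.55 and Otop1 at −1.99. In the CD mice of 6 weeks Cox8b read 106 CPM in M22, 162 in M43, 300 in M48 and 365 in M45, the order of their muscle shares. Ucp1, Cidea and Otop1 did not lie in that order. Of the 23 lipogenic genes, 17 were called lower on the thyrocyte scale, beside 3352 of all 18929 genes. With the white adipocyte score in the model 4 were called lower, beside 12 of all genes.

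In fatty acid oxidation and lipid droplets, 2 of 27 genes were called higher and 7 lower, against 4.73% and 3.91% of all genes, with a median of −0.44. Plin5, a droplet coat protein of oxidative tissues (−1.34), and Ppara, the nuclear receptor of fatty acid oxidation (−1.13), were lower and separated, and Ucp2, a mitochondrial carrier, was higher and separated (1.32). The other lower genes were Cd36 and the oxidation genes of muscle Pdk4, Fabp3, Cpt1b and Ucp3, of which these last 4 were not separated. Without the 3 muscle-rich libraries 1 gene was called higher and 1 lower, Ppara being at −0.87.

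Of 23 genes of glycolysis and glucose uptake, 5 were called lower, against 3.91% of all genes, and none higher, with a median of −0.36 (0.00 at 3 weeks, −0.74 at 6 weeks). Slc2a4, the insulin-responsive transporter GLUT4, read 15.5, 16.6, 21.2 and 30.15 CPM in CD and 4.65, 5.36, 6.30 and 6.50 CPM in HF+SD at 3 weeks, where muscle counts were low in all mice. After 6 weeks it read 21.1, 49.2, 119 and 174 CPM in CD and 4.22, 5.64, 5.96 and 6.60 CPM in HF+SD, the CD mice lying in the order of their muscle shares. Its log2 fold change was −2.95 ± 0.45 (adjusted p = 0.000147) and −1.88 (adjusted p = 6.68e-06) without the muscle-rich libraries. Hk2, the hexokinase of insulin-sensitive tissues, read 17.6 to 30.7 CPM in CD and 4.13 to 8.94 CPM in HF+SD at 3 weeks, and 32.9 to 115 against 3.26 to 9.88 CPM at 6 weeks. It was at −2.76 ± 0.37, and at −2.06 without those libraries, and Slc2a3 (GLUT3) was at −1.79. Both Slc2a4 (−2.36, adjusted p = 0.265) and Hk2 (−1.91, adjusted p = 0.291) were no longer called with the white adipocyte score in the model.

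Of 27 amino acid transporters 4 were called higher, 3 lower and 20 not at all, against 4.73% and 3.91% of all genes. Slc7a7, a light chain of the y+L system for cationic and neutral amino acids, read 5.89, 6.78, 7.83 and 8.18 CPM in CD and 17.0, 17.7, 19 and 19.9 CPM in HF+SD at 3 weeks, then 5.04 to 6.15 against 23.5 to 29.7 CPM. Its change was 1.79 ± 0.14 on the log2 scale (adjusted p = 3.87e-07) with no overlap. Slc43a2, a carrier of large neutral amino acids (1.38), and the taurine transporter Slc6a6 (1.21) were also separated, and Slc38a3 (1.35) was not. On the lower side Slc43a1 (−1.57) was separated, while Slc38a4 (−3.09) and Slc7a2 (−1.36) were not, and without the muscle-rich libraries 4 were called higher and 1 lower.

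Among antioxidant genes 2 of 31 were called higher and 1 lower, near the 4.73% and 3.91% of all genes. Sod3, the extracellular superoxide dismutase, read 91.9, 121, 167 and 187 CPM in CD and 526, 549.7, 552 and 570.5 CPM in HF+SD at 3 weeks. The later set read 22.5, 30.5, 32.05 and 37.0 CPM against 149, 166, 188 and 216 CPM, a difference of 4.78-fold across sets whose own levels differed (log2 fold change 2.26 ± 0.16, adjusted p = 1.68e-07). Nqo1, a quinone reductase, was called lower at −1.3 without being separated and lay at −0.78 when the muscle-rich libraries were left out. The peroxidase Gpx7 is taken up with the marginal genes.

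Ribosomal protein genes had small and regular values. None of 79 passed the minimum fold change, yet 69 passed the adjusted p as lower and 1 as higher, against 13.3% and 13.8% of all genes. In the lower direction 58 were separated, against 3.19% of all genes. Their median log2 fold change was −0.36, −0.24 at 3 weeks and −0.41 at 6 weeks, and −0.29 without the muscle-rich libraries. Rpsa, of the small subunit, had the lowest value (−0.58, adjusted p = 0.000203) with 437 ± 35.5 CPM (SD, n = 4) in CD and 339 ± 18 CPM in HF+SD at 3 weeks, then 789 ± 62.1 against 456 ± 29.6 CPM. Processed pseudogenes make the counts of such genes uncertain. On the thyrocyte scale the median was −0.95, with 24 of the 79 called lower, beside 3352 of all 18929 genes.

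Complex I subunits did not share this pattern between the sets. None of 36 was called and none was separated, with a median of 0.08 at 3 weeks, −0.72 at 6 weeks and −0.009 in the joint model without the muscle-rich libraries. Of 30 endoplasmic reticulum chaperones and disulfide isomerases none was called, the median being −0.22 at 3 weeks and 0.45 at 6 weeks. Hspa5, the chaperone BiP, had a value of 0.13 (adjusted p = 0.819). For these lists and the next, the shares of all genes were 4.73% called higher and 3.91% called lower. Among 26 targets of the integrated stress response none was called higher and 3 lower, Chac1 (−3.33, not separated), Cebpb and Eif4ebp1, and none was called without the muscle-rich libraries.

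Cholesterol synthesis and uptake gave 1 gene called higher and 2 lower of 24, beside the 4.73% and 3.91% of all genes, the lower being Pmvk, the phosphomevalonate kinase (−1.33, separated), and Hsd17b7. Of 18 lysosomal genes none was called, although 10 passed the adjusted p as higher, against 13.8% of all genes. Their median was 0.34 (−0.27 on the thyrocyte scale). Of 19 clock genes 2 were called lower and none was separated, and of 17 immediate early genes none passed in either direction. In insulin and IGF signalling, beside the same shares of all genes, 1 of 18 was called higher, the binding protein Igfbp7 (1.17, separated), and 2 lower, Irs4 (−2.35, not separated) and Irs1.

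**Figure D5:**
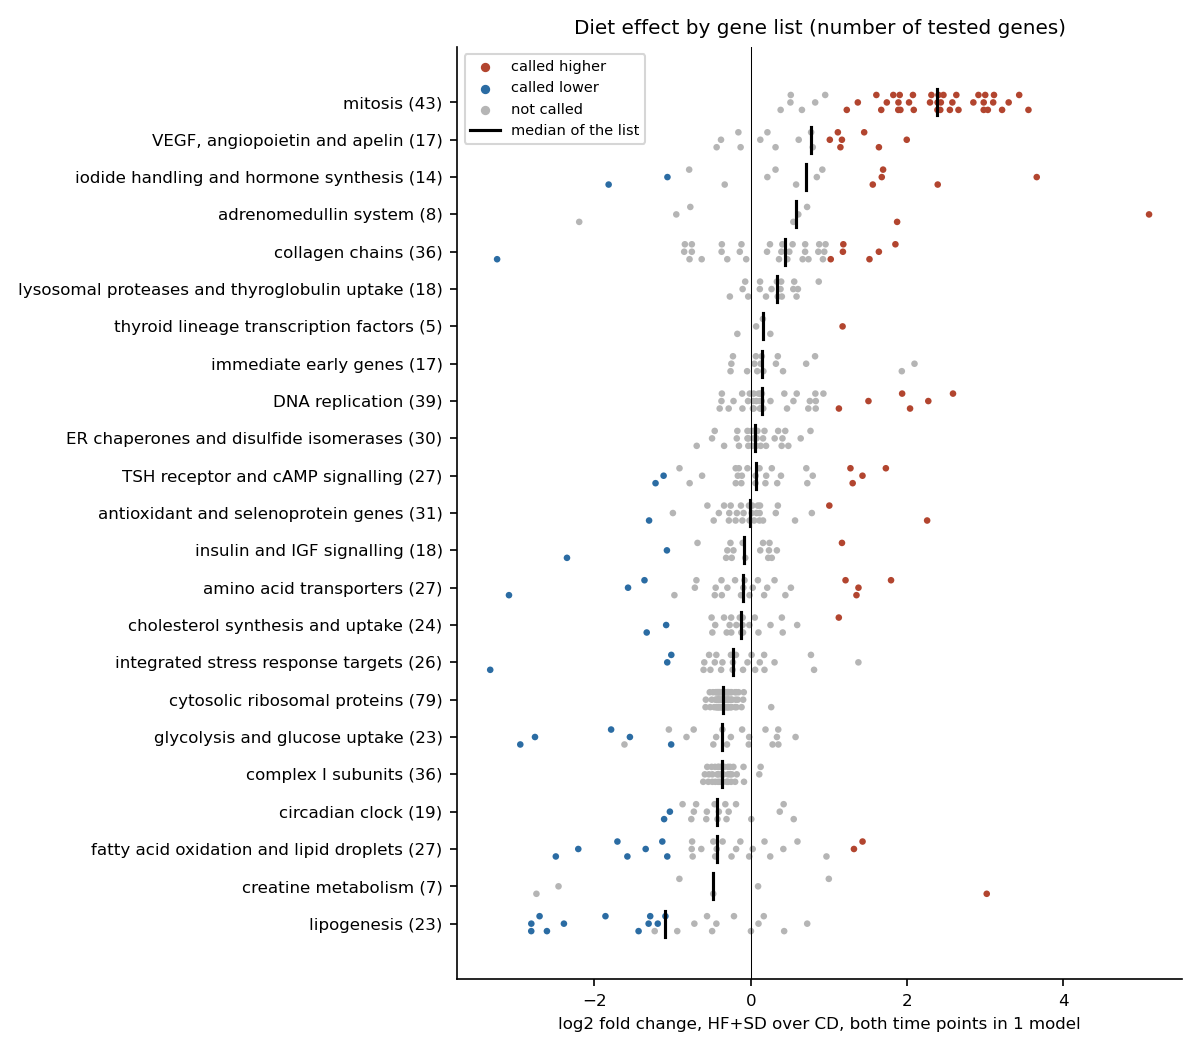
Log2 fold change (x axis, HF+SD over CD, joint model) of every tested gene of 23 lists, 1 point per gene, ordered by list median (black bar). The mitosis list lies apart from zero with a median of 2.39, lipogenesis has the lowest median at −1.09, and ribosomal proteins form a narrow cluster around −0.36.

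For 10 of the 87 genes chosen by rule a single mouse decided the call, through the minimum fold change or through the adjusted p. Bhlhe41 and Tef, transcription factors tied to the clock, lost it on leaving out any of 10 and 7 mice respectively, with values from −1.11 to −0.93 and from −0.99 to −0.85, and adjusted p up to 0.0909 and 0.0735. Gpx7 lost it for 6 mice (0.96 to 0.99), Irs1, an insulin receptor substrate, for 6 (−1.06 to −0.84, adjusted p up to 0.0674), Eif4ebp1, the translation repressor 4E-BP1, for 5 (−0.99 to −0.94) and Hsd17b7, a cholesterol synthesis enzyme, for 5 (−1.01 to −0.76, adjusted p up to 0.0704). Slc2a5, the fructose transporter, lost it for 4 (−0.97 to −0.78). Cd36, a fatty acid transporter, lost it without M45 of the CD mice or M34 of the HF+SD mice at 6 weeks (both −0.99). Cebpb lost it without M45 (−0.997) or M55 of the CD mice at 3 weeks (−0.97), and Kif1a without M45 (0.99). The other 77 of the 87 genes chosen by rule did not change side of the threshold with any single mouse left out. Over all 1636 called genes more calls depended on 1 mouse. Without M34 of the HF+SD mice at 6 weeks, 1337 of the 1636 were still called.

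The diet effect differed between the sets for 15 genes (interaction at an adjusted p under 0.05, 0.0792% of those tested), of which 11 were called in the joint model. At an unadjusted p under 0.05 there were 4217 of the 18929 genes tested, where a share of 0.05 is expected by chance. The 15 are therefore the genes that passed and not a count of all whose effect differed in size. Foxf2, a forkhead factor of mesenchyme, read 1.61, 2.70, 2.96 and 3.79 CPM in CD and 7.37, 8.68, 9.32 and 11.6 CPM in HF+SD at 3 weeks, and 0.443, 0.593, 0.689 and 1.17 against 15.2, 16.1, 18.25 and 21.8 CPM at 6 weeks. Both sides moved apart, and its log2 fold change was larger by 2.88 at 6 weeks (adjusted p = 0.0140). Slco4a1, an organic anion transporter that carries thyroid hormones, read 0.962 to 2.42 against 3.88 to 6.98 CPM at 3 weeks and 0.782 to 1.63 against 14.85 to 20.03 CPM at 6 weeks, a difference of 2.30 (adjusted p = 0.0438). The others were the kinesin Kif1a (1.62), the secreted Wnt antagonist Sfrp5 (1.61), the mechanosensitive channel Piezo2 (1.45) and the mucin Muc1 (1.34), each larger at 6 weeks. This count was unstable, since it was 2715 without M22 of the CD mice at 6 weeks, the 1 control there with few muscle counts, 1285 without M43, and 1796 with DESeq2.

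For 74 of the 87 genes the exact two-sided permutation test within time points gave 0.000408, the smallest p that its 4900 arrangements allow. Any gene separated in the same direction at both times must give this value. Most of these genes were chosen by separation or by p-values from the same counts, so the test adds no independent support. The p-values rest on separate mice, 4 per group, each sequenced in 1 library.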

How the data were processed

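Poly(A) RNA of 16 mouse thyroids was sequenced as 150 bp read pairs, 1 library per mouse, and mapped by the authors. Per the labels, the processing tools were Trim Galore 0.6.7, STAR, DESeq2 1.36.0 and R 4.1.0 with build mm39. The counter, the annotation and whether counting used strand were not given in the sources used. The deposited raw counts per gene (21640 genes, of which 20841 have a symbol) gave every result. The authors also deposited a normalized signal, each count divided by 1 size factor per library, which was used only in the limma alternative. Groups came from the sample labels, and no file held a column of another sample.

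Counts were scaled by TMM, filtered by filterByExpr on the 4 groups, and tested with the quasi-likelihood F test of edgeR 4.0.16 (R 4.3.3) with time point and diet as terms, with Benjamini-Hochberg adjustment over all genes tested. The study processed its data with DESeq2, which was tried here as an alternative (1.42.0, with limma 3.58.1 as another). Separate fits of the 8 libraries of each time, an interaction fit and an exact permutation test within times were added. The standard error is the log2 fold change divided by the root of F. Separation was read from log2 CPM with a prior count of 2. On simulated counts with known changes the main test was checked first. Depth was 30025256 to 48508653 counts per library, and intervals cover counting error only.

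The genes named by rule were the 12 higher and 12 lower with the largest change in their weaker set, up to 4 called members per list with the lowest p, the 6 with the lowest interaction p, and the study's 6 TSH-responsive genes. Other list members and markers were named after their values were seen. The members, the 23 pathway lists and the 13 marker lists were chosen with earlier results of these data known. Promoter windows came from RefSeq (GRCm38.p6). Alternatives were other size factors, scaling to 9 thyrocyte genes outside the study's own list, other filters and thresholds, other models and tools, marker scores as covariates, and leaving out each mouse or the 3 libraries with over 1% muscle counts. A few genes of these lists are counted but not reported by name here.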

Additional observations from a re-analysis of the deposited data

Results flagged for a closer look

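Of 340 groups of 4 mice checked over the named genes, 23 held a mouse whose gap to the others passed Dixon's 95% limit, and chance flags about 1 in 20 such groups. In the CD mice of 6 weeks these were M43 for Dcpp1 (41.0 CPM against 0.415 to 0.751 in the others), Rgs2 (59.0 against 36.9 to 39.2) and Col18a1 (17.8 against 33.0 to 35.2), M22 for Kcne1 (0.597 against 0.219 to 0.266) and F10 (0.977 against 0.376 to 0.415), and M48 for Sfrp5 (8.56 against 6.17 to 6.54) and Muc1 (3.57 against 2.58 to 2.71).

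In the CD mice of 3 weeks they were M55 for Lhx1 (0.0278 CPM against 0) and Chac1 (2.50 against 0.384 to 0.454), M96 for H2-Q10 (14.6 against 9.46 to 10.3), Thrsp (299 against 167 to 184) and Slc2a5 (2.23 against 0.945 to 0.977), and M54 for Pde3b (31.7 against 43.3 to 44.5) and Ppara (8.73 against 5.95 to 6.37).

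In the HF+SD mice of 3 weeks they were M31 for Lingo1 (11.8 CPM against 4.60 to 5.72) and Col26a1 (4.45 against 2.04 to 2.29), M7 for Fasn (221 against 150 to 162) and M19y for Ckb (164 against 154 to 155). In those of 6 weeks they were M5 for Pimreg (1.67 against 3.57 to 3.78), BC023105 (1.39 against 0.902 to 0.984) and Chac1 (0.909 against 0.426 to 0.492), M18 for Ramp3 (31.2 against 27.5 to 28.1) and M35 for Kdr (315 against 250 to 259). Apart from Chac1, every gene named here was separated between the diets at both times.

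The diet effect differed between the time points for 6 named genes by the interaction term of edgeR. The 6-week log2 fold change exceeded the 3-week one by 2.88 for Foxf2 (adjusted p = 0.0140), 1.62 for Kif1a (0.0241), 1.45 for Piezo2 (0.0291), 1.61 for Sfrp5 (0.0438), 2.30 for Slco4a1 (0.0438) and 1.34 for Muc1 (0.0438). In each of them all 4 HF+SD mice lay above all 4 CD mice at both times, and for all but Slco4a1 the CD values at 6 weeks lay below those at 3 weeks.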

How the results depend on the processing

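No paired analysis was possible because the mouse numbers differ between groups. The 1636 genes called (832 of them separated, 607 higher and 225 lower) became 3748 (1355, with 245 higher and 1110 lower) when libraries were scaled to 9 thyrocyte genes, which lowered the median of all genes by 0.593 and left 396 higher and 3352 lower (10.57% higher instead of 54.77%). Glis3, called higher in the joint model, is among these 9 genes. With at least 10 counts in every library they were 870 (495 higher, 375 lower), 401 of them separated higher. Without a minimum fold change they were 5115 (2603 and 2512), of which 1684 separated (1084 and 600), and tested against a log2 fold change of 1 they were 465 (318 and 147), of which 385 separated (302 and 83). With the white adipocyte score as a covariate, added after the data were seen, they were 165 (153 and 12), of which 161 separated (149 and 12). With the skeletal muscle score 470 were called lower, and without the 3 muscle-rich CD libraries of 6 weeks, which leave 1 CD mouse there and assume it varies like the other groups, 386 were called lower and 1185 in all (877 separated), of which 935 were among the 1636. DESeq2 called 2008 and limma on the deposited normalized counts 1408. With each single mouse omitted there were 1455 to 1925 genes called and 826 to 963 called and separated. For the same omissions the 3-week fit gave 623 to 976 genes (803 with all mice) and the 6-week fit 1468 to 3169 (2308 with all), the lowest being without HF+SD mice M34 (1468) and M18 (1494). The 15 genes that differed in size between the times became 92 with RLE size factors and 1796 with DESeq2, and 1 to 2715 with a mouse left out. Over 87 named genes and 29 alternatives, 2312 values kept direction and side of the threshold, 190 kept direction but lost the call, Duox2 gained it without a minimum fold change, and Tg turned to −0.37 on the thyrocyte scale (adjusted p = 0.099). The adipocyte score ended 56 of these calls, the test against a log2 fold change of 1 ended 31, the thyrocyte scale 18 and the omission of the muscle-rich libraries 16. The cause of these differences was not tested. With at least 10 counts in every library only 68 of the 87 named genes could be tested. Of the 87, 27 kept direction and side of the threshold under every alternative in which they were tested. For genes near zero in CD, such as Lhx1, the depth limits the fold to a wide interval.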

Other observations

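Of 12 thyrocyte identity genes 4 were called higher and none lower, against 4.73% and 3.91% of all genes, with a median log2 fold change of 0.58. Parathyroid and C cell markers had no called gene. None of 7 C cell markers, genes of the calcitonin-producing cells, was called, and their median was −0.63. By adjusted p alone 6 of the 7 passed as lower, against 13.3% of all genes. Parathyroid markers took 0.00638% to 1.96% of the counts over the 16 mice, the highest share being that of M22 of the CD mice at 6 weeks, and none of 4 was called. Pth, the parathyroid hormone, had a value of −1.59 (adjusted p = 0.189).

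Of 14 immune cell markers none was called and 4 passed the adjusted p as higher, against 13.8% of all genes, with a median of 0.38 and 13 positive values. Of 5 erythrocyte genes none was called and 4 passed the adjusted p as higher, with a median of 0.62 and all 5 values positive. Of 9 tracheal epithelium and cartilage genes tested, 2 were called higher and 1 lower, against 4.73% and 3.91% of all genes. Of 6 thymocyte markers 1 could be tested, Cd4, with a log2 fold change of 1.70.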
